A study of Sus scrofa with 3 samples.

Results

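The genes described here are the peroxisome biogenesis factors (peroxins, PEX genes) and the lipid-metabolizing proteins of the peroxisome in pig liver. A list of 35 gene symbols was matched to the entries of the expression tables, and a gene was kept when its FPKM was at least 1 in all 3 libraries. FPKM is a read number divided by transcript length and by a library factor, so levels of different genes can be compared per unit of length. By symbol, 33 of the 35 genes were found and 32 were kept, out of 15613 mRNA features that met the same minimum. They were 12 of 13 PEX factors, 4 of 6 membrane proteins and 16 of 16 matrix enzymes.

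Liver RNA came from Chinese Wuzhishan miniature pigs, all of them males, whose given age of 6 to 7 months is, per the methods, that at which they were obtained. After a period on standard feed and the surgery they had eaten feed rich in fat and cholesterol (the HFC diet) for 12 weeks. IM pigs were intact and had a sham operation, CM pigs were castrated, and CMT pigs were castrated and received testosterone propionate at 10 mg/kg intramuscularly each week. Each group was sequenced as 1 library of RNA pooled in equal amounts. The labels give 3 pigs in each pool, whereas the methods give 6 pigs per group. No group without the HFC diet was among the samples, so every value below is a value under this diet.

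With 1 library per group there was no replicate check, and differences between pigs cannot be told apart from differences between groups. No p-value is given. Where 3 values of a gene follow each other without a name, they are those of IM, CM and CMT in that order. Ratios carry a 95% exact binomial interval on the reads behind 2 libraries, which covers counting error only. A gene was counted as higher or lower when its deposited FPKM differed by at least 1.5-fold. CM versus IM and CMT versus CM share the CM library, so a low value in CM alone moves both ratios, in opposite directions. In bulk tissue, fewer cells of a type and less RNA per cell cannot be told apart.

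Peroxisomes are organelles bounded by a single membrane that shorten very-long-chain and branched-chain fatty acids, carry out the alpha-oxidation of phytanic acid and cleave the side chain of bile acid precursors. Matrix enzymes are made in the cytosol and imported by the receptors PEX5 and PEX7, which dock at PEX13 and PEX14 and are then recycled. In the liver the organelle is abundant in hepatocytes, and many of its lipid enzymes are known targets of the fatty acid receptor PPAR alpha.

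The 32 genes covered a wide range of levels. In IM the FPKM ran from 40.8 for PEX2 to 8677 for PHYH, and 12 of the 16 matrix enzymes lay above every PEX factor and membrane protein in that library. The sum over all 32 genes was 38339.5, 21068 and 41840 FPKM in IM, CM and CMT. The matrix enzymes made up most of it, with sums of 35029, 18673 and 38543. The PEX factors summed to 2116, 1701 and 2159.9 in IM, CM and CMT, and the 4 membrane proteins to 1195, 693 and 1136. PHYH, HSD17B4, AMACR and CROT together accounted for 75.5% of the difference between the IM and CM sums.

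**Figure D1:**
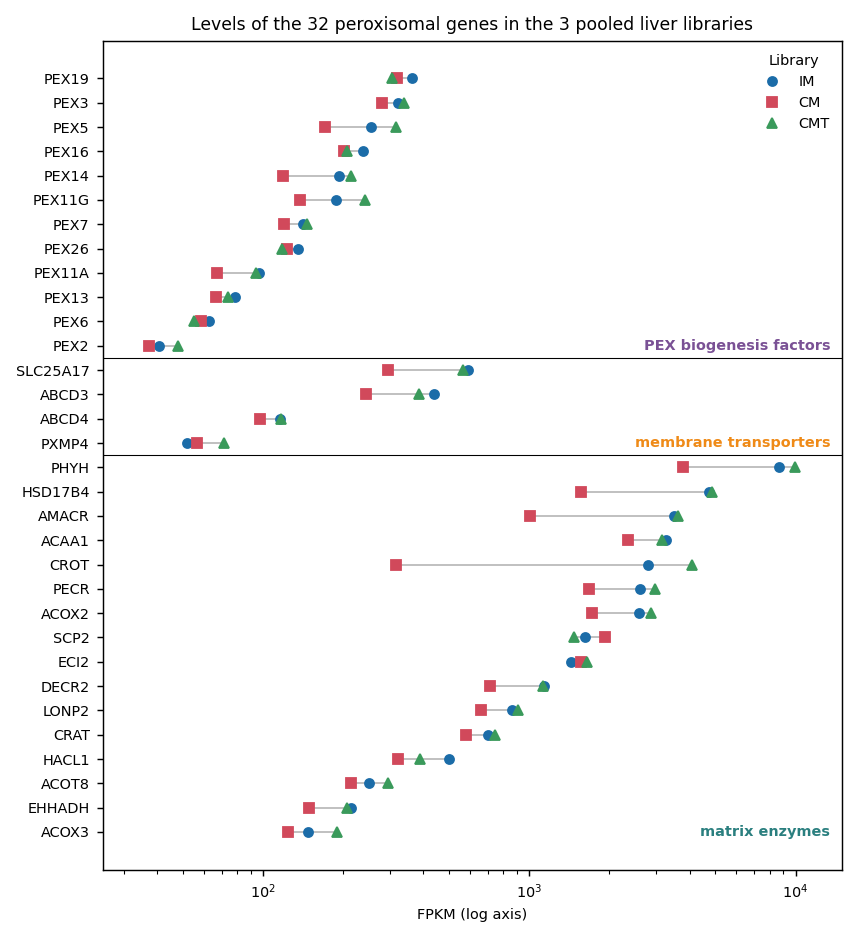
FPKM (log axis) of the 32 peroxisomal genes in the IM, CM and CMT libraries, 1 point per library and gene, grouped by class and ordered by the IM level. The widest gaps are those of CROT, AMACR, HSD17B4 and PHYH, where the CM point lies to the left of the other two, and only PXMP4, SCP2 and ECI2 have their lowest point in IM or CMT among the membrane proteins and matrix enzymes.

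In CM versus IM, 10 of the 32 genes were lower by at least 1.5-fold, and 12.1% of all features tested were lower by that criterion. None was higher, against 11.1% of all features. With the minimum raised to 10 FPKM, which all 32 genes met, 12127 features remained, 9.97% of them lower and 6.75% higher. The 10 genes were PEX14, ABCD3, SLC25A17, HSD17B4, PHYH, HACL1, AMACR, CROT, DECR2 and PECR. The median log2 ratio was -0.41 over the 32 genes and -0.02 over all features, and 29 of the 32 ratios were below 0. By class, 1 of 12 PEX factors, 2 of 4 membrane proteins and 7 of 16 matrix enzymes were lower, with median log2 ratios of -0.24, -0.55 and -0.55.

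The deposited FPKM did not follow the library depth. Scaling the values to the reads recovered for each library shifted every log2 ratio of CM to IM by 0.28, and the median of all features to 0.26. Of all features, 6.42% were then lower and 22.0% higher in CM. Among the 32 genes, 5 were then lower (CROT, AMACR, HSD17B4, PHYH and SLC25A17) and none was higher. The number with a ratio below 0 went from 29 to 17. The PEX median turned to 0.05, whereas the medians of membrane proteins and matrix enzymes stayed below 0, at -0.27 each. A ratio taken relative to the median of all features is not moved by scaling a library. On that basis the 32 genes had a median log2 ratio of -0.39.

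In CMT versus CM, 13 of the 32 genes were higher by at least 1.5-fold, and 12.1% of all features tested were higher. None was lower, against 13.5% of all features. With the minimum raised to 10 FPKM, 10.9% of the remaining features were higher and 8.07% lower. The median log2 ratio was 0.46 over the 32 genes and 0.01 over all features. The 13 genes comprised 3 of 12 PEX factors (PEX5, PEX11G and PEX14), 2 of 4 membrane proteins (ABCD3 and SLC25A17) and 8 of 16 matrix enzymes (ACOX2, ACOX3, HSD17B4, PHYH, AMACR, CROT, DECR2 and PECR). Scaled to recovered reads, 7 were higher (CROT, AMACR, HSD17B4, PHYH, SLC25A17, PEX5 and PEX14) and SCP2 was lower, while 6.82% of all features were higher and 22.4% lower. In CMT versus IM, none of the 32 genes differed by 1.5-fold in either direction, against 6.67% of all features higher and 10.1% lower. These shares were smaller with the minimum raised to 10 FPKM, at 3.92% higher and 5.05% lower. The median log2 ratio of the 32 genes was 0.05. Scaled to recovered reads, CROT was higher, while 7.49% of all features were higher and 9.22% lower.

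**Figure D2:**
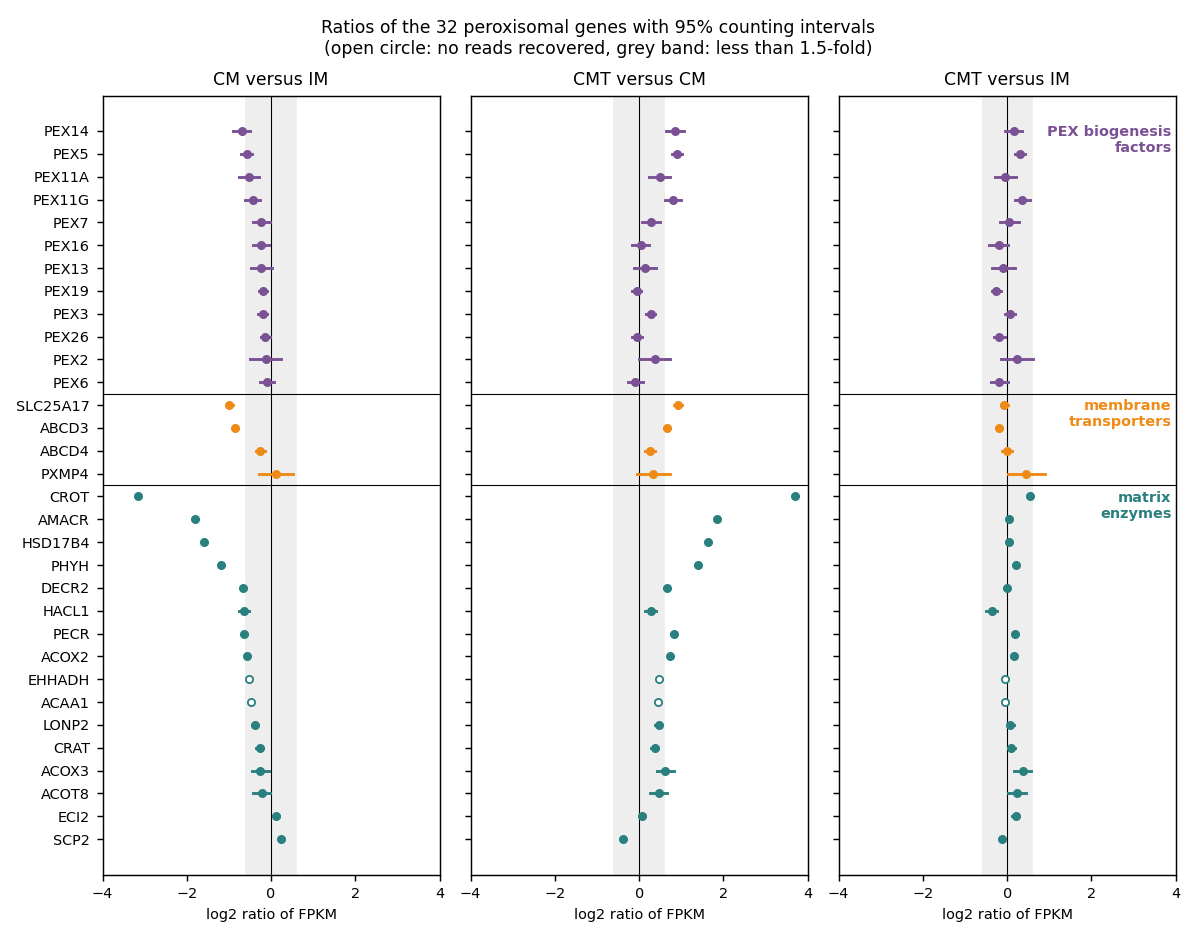
Log2 ratio of deposited FPKM for each of the 32 genes in the 3 pairwise comparisons of libraries (panels), with the 95% exact binomial interval on recovered reads (counting error only). EHHADH and ACAA1 are open circles without an interval, and the grey band marks ratios of less than 1.5-fold. The 4 matrix enzymes CROT, AMACR, HSD17B4 and PHYH stand apart in the left and middle panels, while all 32 points of the right panel lie inside the band.

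Among the matrix enzymes, CROT, the carnitine octanoyltransferase that converts medium-chain acyl-CoA products into carnitine esters for export, differed most. Its FPKM was 2805, 315 and 4099 in IM, CM and CMT, from 21754, 3331 and 25840 reads. CM was thus the single low library, 8.90-fold below IM (interval 8.58 to 9.23), and only 24 of the 15613 features had a lower ratio. CMT was 13.0-fold above CM (12.5 to 13.5) and 1.46-fold above IM (1.44 to 1.49). In IM, 97.5% of all features had a lower FPKM than CROT, and in CM 86.8% had. CRAT, the related acetyltransferase for short chains, was measured at 698, 578 and 745 FPKM in IM, CM and CMT. The ratio of CROT to CRAT, which no scaling of a library changes, was 4.02, 0.545 and 5.50 in IM, CM and CMT, so CROT was the lower of the pair only in the CM library. ACOT8, a thioesterase that hydrolyses acyl-CoA in the matrix, was at 249.6, 214 and 295 FPKM, a log2 ratio of -0.22 for CM to IM and 0.46 for CMT to CM.

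AMACR, the racemase that turns branched-chain and bile acid intermediates into the form that beta-oxidation accepts, was measured at 3505, 1006 and 3623 FPKM in IM, CM and CMT, from 13866, 5421 and 11649 reads. It was 3.49-fold lower in CM than in IM (3.38 to 3.60), with 168 features at a lower ratio. In CMT it was 3.60-fold above CM (3.49 to 3.72) and 1.03-fold above IM (1.01 to 1.06). HSD17B4, the D-bifunctional protein that performs the hydratase and dehydrogenase steps for those substrates, was at 4717, 1572 and 4866 FPKM, from 33551, 15234 and 28134 reads. CM was 3.0-fold below IM (2.94 to 3.06), and CMT was 3.10-fold above CM (3.04 to 3.16) and 1.03-fold above IM (1.02 to 1.05). For both genes the IM and CMT libraries lay close together and CM lay far below.

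The bifunctional enzyme of the straight-chain route, EHHADH, was at 215, 149 and 207 FPKM, and its log2 ratios of -0.53 and 0.47 stayed under the 1.5-fold criterion. The ratio of HSD17B4 to EHHADH within a library was 21.9, 10.5 and 23.6 in IM, CM and CMT. The 2 bifunctional enzymes therefore differed unequally, whichever library scaling is used. No whole reads could be recovered for EHHADH or for ACAA1, and neither has an interval.

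The oxidases and thiolases at the start and the end of the cycle showed smaller differences. ACOX2, the oxidase of branched-chain and bile acid intermediates, was at 2579, 1728 and 2864 FPKM, 1.49-fold lower in CM than in IM (1.45 to 1.54), just under the criterion, and 1.66-fold higher in CMT than in CM (1.61 to 1.71). ACOX3, the pristanoyl-CoA oxidase, was at 148, 124 and 191 FPKM and was 1.54-fold higher in CMT than in CM (1.34 to 1.76). Its log2 ratio of CM to IM was -0.25. ACAA1, the straight-chain thiolase, was at 3273, 2339.9 and 3166 FPKM, with log2 ratios of -0.48 for CM to IM and 0.44 for CMT to CM.

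SCP2, whose longer form is the thiolase for branched chains and bile acid intermediates, went the other way. Its FPKM was 1622, 1922 and 1479.7 in IM, CM and CMT, from 8744, 14121 and 6484 reads. CM was the high library, 1.19-fold above IM (1.15 to 1.22), and CMT was at 0.770 of CM (0.747 to 0.793). As deposited, SCP2 was the only matrix enzyme with a negative log2 ratio of CMT to CM, and SCP2 and ECI2 were the only ones with a positive ratio of CM to IM. Scaled to recovered reads, ECI2 also had a negative ratio of CMT to CM, and 5 matrix enzymes had a positive ratio of CM to IM. Within the libraries, the ratio of AMACR to SCP2 was 2.16 in IM and 2.45 in CMT but 0.523 in CM, and the ratio of SCP2 to ACAA1 was 0.496 in IM and 0.467 in CMT but 0.821 in CM. The FPKM tables hold 1 value per gene, so the thiolase form and the short sterol carrier form of SCP2 were not separated.

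Alpha-oxidation shortens phytanic acid, a branched-chain fatty acid, at its carboxyl end, and 2 of its enzymes were measured. PHYH, the hydroxylase, had the highest level of all 32 genes in each library, at 8677, 3779 and 9967 FPKM in IM, CM and CMT, from 24938, 14799 and 23280 reads. CM was 2.30-fold below IM (2.25 to 2.34), with 511 features at a lower ratio, and CMT was 2.64-fold above CM (2.58 to 2.69) and 1.15-fold above IM (1.13 to 1.17). HACL1, the lyase of the following step, was at 502, 322 and 389 FPKM from 1286, 1126 and 810 reads. It was 1.56-fold lower in CM than in IM (1.44 to 1.69), but CMT was only 1.21-fold above CM (1.10 to 1.32) and stood at 0.775 of IM (0.709 to 0.847). Its level thus stayed nearer to CM than to IM in the CMT library, and scaled to recovered reads its log2 ratio of CM to IM was -0.36, under the criterion. The ratio of PHYH to HACL1 was 17.3 in IM, lowest in CM at 11.7 and highest in CMT at 25.6.

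The auxiliary enzymes for unsaturated and enoyl intermediates split. DECR2, the dienoyl-CoA reductase, was at 1133, 716 and 1128 FPKM, 1.58-fold lower in CM than in IM (1.52 to 1.65) and 1.58-fold higher in CMT than in CM (1.51 to 1.65). PECR, the trans-enoyl-CoA reductase, was at 2601, 1679 and 2961 FPKM, 1.55-fold lower in CM (1.49 to 1.61) and 1.76-fold higher in CMT than in CM (1.70 to 1.83). ECI2, an enoyl-CoA isomerase, was at 1441, 1567 and 1653 FPKM and was highest in CMT, with log2 ratios of 0.12 and 0.08. DECR2 and PECR lost the criterion in CM versus IM and in CMT versus CM when values were scaled to recovered reads. LONP2, the protease that degrades damaged matrix proteins, was at 863, 661 and 909.6 FPKM, with log2 ratios of -0.39 and 0.46.

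Among the membrane proteins, SLC25A17, the carrier that brings coenzyme A, FAD and NAD into the organelle, was at 588, 296 and 562 FPKM in IM, CM and CMT, from 2594, 1780 and 2016 reads. CM was 1.99-fold below IM (1.87 to 2.11) and CMT was 1.90-fold above CM (1.78 to 2.02). ABCD3, the abundant transporter also called PMP70, which takes up branched-chain acyl-CoA and bile acid precursors, was at 439, 243 and 386 FPKM from 4886, 3691 and 3494 reads. It was 1.80-fold lower in CM than in IM (1.73 to 1.88) and 1.59-fold higher in CMT than in CM (1.51 to 1.66), and CMT stood at 0.880 of IM (0.842 to 0.919). Scaled to recovered reads, SLC25A17 stayed past 1.5-fold in both comparisons with CM, whereas ABCD3 did not. SLC25A17 and ABCD3 kept similar proportions in the 3 libraries, with ratios of 1.34, 1.22 and 1.46 in IM, CM and CMT.

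ABCD4, a relative of ABCD3 that is best known for cobalamin export from lysosomes, was at 116, 97.4 and 117 FPKM. PXMP4, a small peroxisomal membrane protein of unsettled function, was at 52.1, 56.5 and 71.4 FPKM from 88, 130 and 98 reads, and its interval for CM to IM ran from 0.821 to 1.44. It was the only membrane protein whose lowest value was in IM. ABCD2, a very-long-chain transporter, was listed at 0.267, 0 and 0.439 in IM, CM and CMT, from 3, 0 and 4 reads, and failed the minimum. The 0 in CM allowed an FPKM of up to 0.196, so no ratio is given. PXMP2 was not found by symbol, by gene ID or by synonym and was not analysed.

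The PEX factors lay within a narrower range than the enzymes. Of the import receptors, PEX5, which binds the common C-terminal signal of matrix proteins, was at 256, 171 and 317 FPKM in IM, CM and CMT, from 1089, 991 and 1099 reads. It was 1.497-fold lower in CM than in IM (1.37 to 1.63), just short of the criterion, and was 1.86-fold higher in CMT than in CM (1.70 to 2.03). PEX7, the receptor of the N-terminal signal carried by few proteins such as PHYH and ACAA1, was at 141, 119.7 and 146 FPKM, with log2 ratios of -0.24 and 0.29. The ratio of PEX5 to PEX7 was 1.81, 1.43 and 2.17 in IM, CM and CMT.

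The 2 docking proteins differed unequally. PEX14, the membrane docking site of PEX5, was at 193, 119 and 214 FPKM from 443, 373 and 400 reads, 1.62-fold lower in CM than in IM (1.41 to 1.86) and 1.80-fold higher in CMT than in CM (1.56 to 2.08). It was the only PEX factor past the criterion in CM versus IM, and scaling to recovered reads brought its log2 ratio from -0.69 to -0.41, under the criterion. Its partner PEX13 was at 78.6, 66.8 and 73.8 FPKM, and its interval for CM to IM ran from 0.716 to 1.01. The ratio of PEX14 to PEX13 was 2.45, 1.78 and 2.90 in IM, CM and CMT.

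Of the machinery that recycles the receptors, PEX2, a ubiquitin ligase subunit, was at 40.8, 37.3 and 48.0 FPKM. PEX6, the ATPase that pulls the receptor out of the membrane, was at 62.7, 58.7 and 55.2 FPKM. PEX26, its membrane anchor, was at 135, 123 and 118 FPKM. No ratio of these 3 genes reached 1.5-fold, and the log2 ratios of CM to IM were -0.13, -0.10 and -0.13. PEX10, the ligase partner of PEX2, was not listed under its symbol. A gene ID in the RefSeq annotation (Sscrofa11.1) tied it to the entry LOC100736805, at 72.8, 53.4 and 48.9 FPKM with a log2 ratio of CM to IM of -0.45, and it stayed outside the counts.

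The factors that insert membrane proteins included PEX19 and PEX3, the highest of the class in IM and CM. PEX19, the cytosolic chaperone for peroxisomal membrane proteins, was at 365, 318 and 305 FPKM. PEX3, which receives PEX19 at the membrane, was at 322, 280.5 and 339 FPKM, and PEX16, which recruits PEX3, was at 238, 202 and 207 FPKM. Their log2 ratios of CM to IM were -0.20, -0.20 and -0.24, and scaling to recovered reads turned all 3 slightly above 0. The growth and division factor PEX11A was at 97.1, 67.2 and 94.2 FPKM, with log2 ratios of -0.53 and 0.49. PEX11G, its paralog, was at 188, 138 and 241 FPKM, 1.36-fold lower in CM than in IM (1.20 to 1.54) and 1.74-fold higher in CMT than in CM (1.54 to 1.98). Within the class, the log2 ratios of CM to IM thus ran from -0.69 for PEX14, -0.58 for PEX5, -0.53 for PEX11A and -0.44 for PEX11G to values between -0.24 and -0.10 for the other 8 factors.

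**Figure D3:**
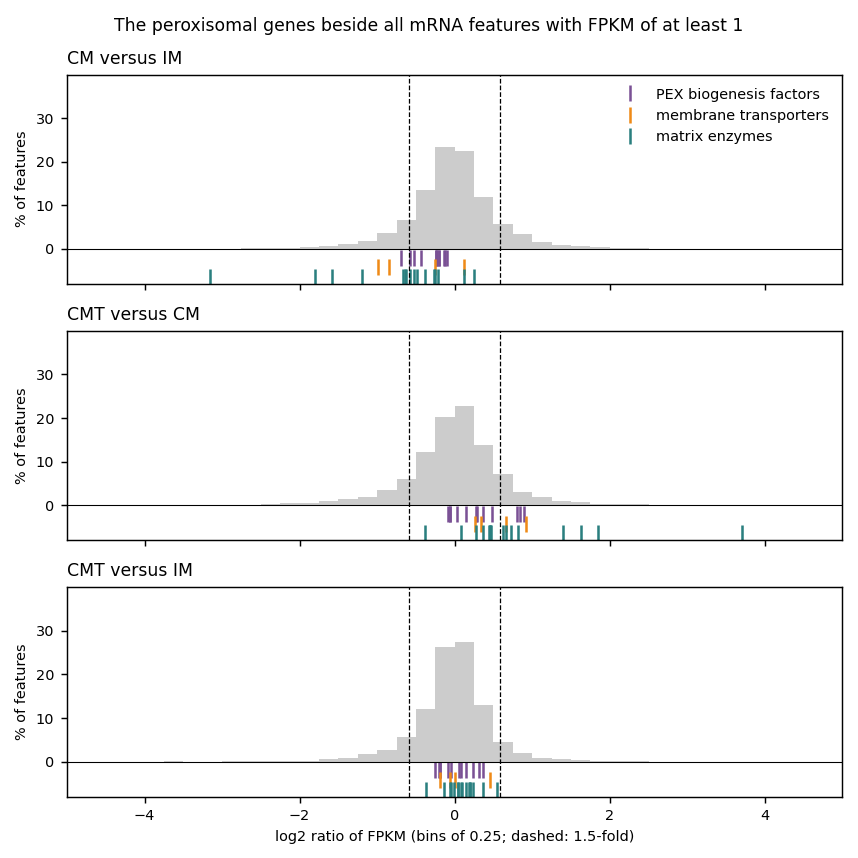
Percentage of the 15613 mRNA features in bins of 0.25 of the log2 ratio (grey bars), with each of the 32 genes as a tick below, coloured by class, and dashed lines at 1.5-fold. In CM versus IM, 29 of 32 ticks lie left of 0 and CROT, AMACR, HSD17B4 and PHYH reach the left tail, in CMT versus CM the same 4 lie in the right tail, and in CMT versus IM every tick lies between the dashed lines.

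Other genes of the peroxisome were counted from a list of 44, of which 41 were measured. In CM versus IM, 13 were lower and 1 was higher, with a median log2 ratio of -0.34, and in CMT versus CM 18 were higher and 1 was lower, with a median of 0.52. In CMT versus IM, 1 was higher and none was lower. Among all features tested, the shares for CM against IM were 12.1% (lower) and 11.1% (higher). For CMT they were 12.1% (higher) and 13.5% (lower) against CM, and 6.67% (higher) and 10.1% (lower) against IM. Scaled to recovered reads, 7 were lower and 2 higher in CM versus IM, with a median of -0.06, and 9 were higher and 2 lower in CMT versus CM, with a median of 0.28. The same scaling put the shares among all features at 6.42% (lower) and 22.0% (higher) for CM against IM. For CMT against CM it put them at 6.82% (higher) and 22.4% (lower). NUDT19, a coenzyme A diphosphatase, was at 279, 63.7 and 196 FPKM in IM, CM and CMT, a log2 ratio of -2.13 for CM to IM. The entry matched to AGXT, which detoxifies glyoxylate, was at 2312, 950.1 and 1949 FPKM (-1.28). PMVK, a kinase of isoprenoid synthesis, was at 825, 367 and 847 FPKM (-1.17), and UOX, the urate oxidase, was at 6476, 3144 and 6409 FPKM (-1.04).

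The entry matched to MPV17L, a membrane protein, was at 45.6, 25.5 and 48.1 FPKM (-0.84). BAAT, which conjugates bile acids, was listed at 5.98, 1.46 and 7.35 FPKM. The smallest whole reads that fit these values were 3, 1 and 3, and a common factor may have been lost. On these reads its ratio of CM to IM of 0.245 had an interval of 0.00466 to 3.05, which would be narrower with more reads. Also named, after their values were seen, were DDO, an aspartate oxidase, lower in CMT than in CM at 138, 161 and 99.4 FPKM, and MVK, higher in CMT than in IM at 459, 302 and 738 FPKM. Catalase (CAT), the classical marker enzyme of the organelle, was at 26378, 24145 and 21629 FPKM. Its log2 ratio of CM to IM of -0.13 was small beside those of CROT, AMACR, HSD17B4 and PHYH.

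Mitochondria oxidize most fatty acids of common chain length, and their genes were counted for comparison. All 18 genes of mitochondrial beta-oxidation that were listed were measured. In CM versus IM, 10 were lower and 1 was higher, with a median log2 ratio of -0.64. Of all features, 12.1% were lower and 11.1% higher (9.97% and 6.75% with the minimum raised to 10 FPKM). In CMT versus CM 11 of the 18 genes were higher and 1 was lower, with a median of 0.63. Of all features, 12.1% were higher and 13.5% lower (10.9% and 8.07% with the raised minimum). Scaled to recovered reads, 3 of the 18 genes were lower and 1 was higher in CM versus IM, with a median of -0.36. In CMT versus CM, 6 were then higher and 1 was lower, with a median of 0.39. Of all features, 6.42% were then lower and 22.0% higher in CM versus IM, and 6.82% higher and 22.4% lower in CMT versus CM. ACADL, a long-chain dehydrogenase, had a log2 ratio of CM to IM of -1.41, CPT1A, the gate of carnitine-dependent import, of -1.24, ECI1 of -0.96, HADH of -0.80, DECR1 of -0.78, SLC25A20 of -0.77 and ETFA of -0.71. ACAA2, the mitochondrial thiolase, was the exception at 1004, 2982 and 99.4 FPKM in IM, CM and CMT. The median of the 32 peroxisomal genes in CM versus IM, -0.41, was nearer to 0 than that of the mitochondrial genes, and no test of a difference between the lists was run.

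**Figure D4:**
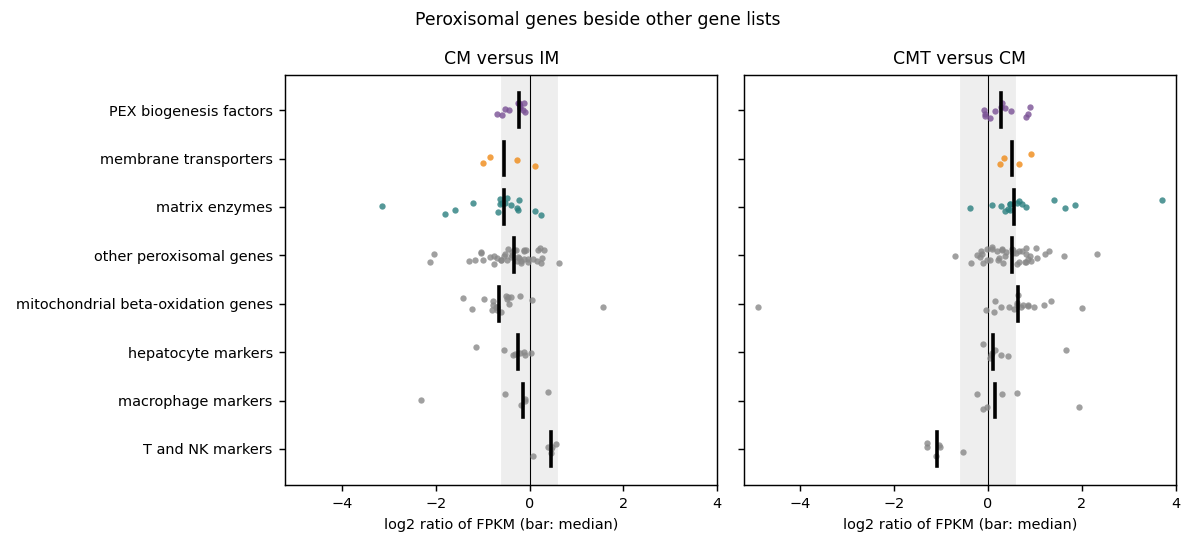
Log2 ratio of deposited FPKM in CM versus IM and CMT versus CM for the 3 classes of peroxisomal genes, 2 further lists and 3 lists of cell type markers, 1 point per gene with a bar at the median, and a grey band for less than 1.5-fold. Medians of matrix enzymes (-0.55 and 0.54) and mitochondrial genes (-0.64 and 0.63) lie on the same side in each panel. Those of hepatocyte markers lie closer to 0 (-0.26 and 0.11), and those of T and NK markers on the opposite side (0.45 and -1.08). Scaled to recovered reads (not drawn), the medians were -0.27 and 0.31 for matrix enzymes and -0.36 and 0.39 for mitochondrial genes. They were 0.02 and -0.13 for hepatocyte markers, and 0.73 and -1.32 for T and NK markers.

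The nuclear receptors and cofactors known to control these genes gave the following levels. PPARA was at 318, 264 and 271 FPKM in IM, CM and CMT, and PPARD at 187, 86.0 and 155 FPKM. PPARGC1A, under the entry PPARGC-1, was at 152, 60.8 and 55.6 FPKM, and PPARGC1B at 4.42, 7.94 and 4.66 FPKM. HNF4A was at 896, 829.8 and 1114 FPKM and NCOR1 at 97.4, 81.3 and 84.5 FPKM. PPARA, PPARD, NCOR1 and HNF4A were lowest in CM, PPARGC1A was lowest in CMT, and PPARGC1B was highest in CM. Whether any of these regulators had a part in the ratios of the peroxisomal genes was not tested. RXRA was not found in the tables.

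Recovered reads summed to 32196547, 36125166 and 25418981 in IM, CM and CMT, and for a 1-kb transcript each FPKM unit corresponded to 2.51, 3.42 and 2.04 reads, so the divisor of CM was high for its depth. All 8 hepatocyte markers were measured, at a median log2 ratio of -0.26 in CM versus IM, with FGB as the 1 marker lower by 1.5-fold, and at 0.02 when scaled to recovered reads. All 6 T and NK markers had ratios above 0, at a median of 0.45 and summed FPKM of 413, 561 and 309. Macrophage markers had a median of -0.14 over 6 of 7 measured (0.14 when scaled to recovered reads), with MARCO lower at 414, 82.8 and 317 FPKM. Median ratios were 0.39 for 4 B and plasma cell markers, 0.05 for 6 stellate and fibroblast markers, -0.31 for 4 endothelial markers, 0.78 for 3 cholangiocyte markers, -2.30 for 2 erythroid markers and -0.66 for 2 adipocyte markers, with ADIPOQ and LEP at 0. These 6 medians became 0.67, 0.33, -0.03, 1.06, -2.02 and -0.38 when scaled to recovered reads, and that of T and NK markers became 0.73. The erythroid markers HBB, at 17158, 3399.7 and 5151 FPKM, and ALAS2, at 77.5, 16.2 and 30.6 FPKM, were both lowest in CM. The part of cell composition in the ratios of the peroxisomal genes was not tested.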

How the data were processed

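Liver RNA of 3 groups of pigs was sequenced as 1 pooled poly-A library per group. Per the methods, TopHat was used for mapping against the pig genome. The authors deposited tables of FPKM, with 34579 features in each library and 22945 mRNA features among them. The counting program and the annotation are not given in the sources used here. Reads were recovered from the steps of the FPKM values, with the smallest length up to 10000 bases that made all 3 values whole within 0.001 reads. This gave reads for 23100 of 24277 features above 0 (95.2%) and for 30 of the 32 genes described, and a common factor can be lost. The recovery was tested on simulated data.

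Ratios were taken of deposited FPKM without rescaling or a pseudocount, over mRNA features that reached an FPKM of 1 in each library, at 1.5-fold. Intervals are 95% exact (Clopper-Pearson) binomial intervals on recovered reads, of which both mates of a pair may have been counted. No test across genes was run, since each group has 1 library.

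The genes and gene lists were chosen with earlier results of these data known. The text names all 35 listed genes and, from each further list, up to 8 genes past 1.5-fold by the size of the log2 ratio of CM to IM; some genes that this rule covers are not reported here. Genes of the further lists absent under their symbol were matched by RefSeq gene ID or synonym (Sscrofa11.1), for names only. Alternatives were 3 scalings, a pseudocount of 1, an FPKM minimum of 10 or none, 2-fold, and an interval on 1 side of 1. Intervals on 50% of the reads and ratios of 2 genes within a library were added after seeing the data. Targeting signals and promoter motifs were not analysed here. Python 3.11.15, numpy, pandas, scipy and matplotlib were used.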

Additional observations from a re-analysis of the deposited data

How the results depend on the processing

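Scaling the libraries moved most counts, and no counted gene changed direction under any alternative. In CM versus IM, the 10 genes lower by 1.5-fold became 5 with values scaled to recovered reads and 6 with equal column sums, and 4 at 2-fold (where 4.77% of all features were lower). The median log2 ratio of the 32 genes became -0.13 with recovered reads and -0.16 with equal column sums. In CMT versus CM, the 13 higher genes became 7 under each of these scalings and 4 at 2-fold (4.80% of all features), 1 gene (SCP2) became lower under each scaling, and the median of 0.46 became 0.22 with recovered reads and 0.21 with equal column sums. In CMT versus IM, 1 gene (CROT) became higher with recovered reads, and none under the other alternatives. The same 5 genes, CROT, AMACR, HSD17B4, PHYH and SLC25A17, stayed past 1.5-fold in CM versus IM and in CMT versus CM under each scaling. Scaling by the median ratio, a pseudocount of 1, an FPKM minimum of 10 or none, and an interval on 1 side of 1 (on all reads or 50% of them) left the counts of 10 and 13 within 1.5 times. Of the 90 single-gene ratios with an interval, 58 moved beyond it with recovered reads, 54 with equal column sums, and 0 with the median ratio or the pseudocount. With equal column sums, 6.87% of all features were lower and 20.7% higher in CM versus IM, and 6.73% were higher and 22.9% lower in CMT versus CM. No paired analysis was possible because each group has 1 pooled library and the labels carry no replicate numbers. No replicate could be left out for the same reason. Depth limits PXMP4 (88 to 130 reads), PEX2, PEX13 and PEX11A most, whose intervals are the widest among the 30 described genes with recovered reads. The interval of BAAT was wider still. Every interval here, that of BAAT included, rests on the smallest reads that fit the values, and would be narrower with more reads.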

Other observations

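The genes next to the 5 genes that stayed past 1.5-fold under each scaling were looked up in the RefSeq annotation of Sscrofa11.1, after the values were seen, for their order only. Beside CROT, ABCB4, a phospholipid exporter of the bile canaliculus, was at 134, 137 and 205 FPKM in IM, CM and CMT, and TMEM243 at 187, 224 and 171 FPKM, so neither neighbour had the low CM value of CROT. Beside HSD17B4, TNFAIP8 was highest in CM, at 37.7, 62.1 and 34.0 FPKM, and beside PHYH, SEPHS1 was at 127, 124 and 158 FPKM. Beside AMACR, SLC45A2 was at 95.1, 39.7 and 101 FPKM, with log2 ratios of -1.26 for CM to IM and 1.35 for CMT to CM, and C1QTNF3, the gene on the other side, was at 1.28, 0.750 and 0.315 FPKM. Beside SLC25A17, ST13, a chaperone cofactor, was at 2165, 1177 and 2172 FPKM, with log2 ratios of -0.88 and 0.88, and MCHR1, on the other side, was at 0.750, 0.551 and 0 FPKM. SLC45A2 and ST13 thus had their lowest value in CM, while C1QTNF3 and MCHR1, both near or under an FPKM of 1, were lowest in CMT. Whether reads of neighbouring genes were shared was not tested.

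The ratio of ACOX2 to ACOX3 was 17.4, 13.9 and 15.0 in IM, CM and CMT, and that of ABCD3 to ABCD4 was 3.77, 2.497 and 3.31. Among the regulators, PPARGC1A had a log2 ratio of -1.45 for CMT to IM.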
